A study of Homo sapiens with 10 samples.

Results

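Kuramochi is a human cell line of high-grade serous ovarian carcinoma, labelled epithelial and BRCA2-mutant, and olaparib is an inhibitor of PARP1 and PARP2, the enzymes that sense DNA strand breaks. Single cells were profiled from 5 conditions that share this genotype: untreated control cells, persister cells surviving 9 days in 10 or 320 µM olaparib, and populations adapted, that is resistant, to olaparib at each of those doses. The results below concern 1410 cells of the population adapted to 10 µM, 747 in pool 1 and 663 in pool 2, out of 3415 such cells and of 13800 cells in all. They were chosen by 2 thresholds: at least 3000 unique molecular identifiers (UMIs, each 1 captured mRNA molecule), and a summed raw count of at least 4 over MECOM, LMO3, REC8, DACH1, EMX2, SPINT2 and BMP7. The comparison was with 3835 control cells, 1991 and 1844 in the pools, that passed the same thresholds. Cells passing are called panel-positive here, and the 1949 cells of the 10 µM adapted population with enough UMIs but a summed count under 4 are called panel-low. The cells of a condition in a pool were summed, so n = 2 per group throughout. Nothing in the labels says whether an adapted population was 1 clone or whether the 2 pools were separate cultures. So p-values measure nothing beyond how far the 2 pools of a group differ. That spread was estimated over 6 groups, not only the 2 compared, and may be technical.

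High-grade serous carcinoma is thought to arise mainly from the secretory epithelium of the fallopian tube. That epithelium and its tumours are recognised by transcription factors such as PAX8, WT1 and SOX17 and by keratins of simple epithelium. Of the panel, MECOM, DACH1, EMX2 and LMO3 encode transcriptional regulators, SPINT2 an inhibitor of serine proteases at the cell surface, BMP7 a secreted growth factor and REC8 a meiotic cohesin subunit.

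The panel split the 10 µM adapted population into 2 unlike sets of cells (the plot of panel UMIs per cell). Of its cells with at least 3000 UMIs, 41.6% passed in pool 1 (exact 95% binomial interval 39.3% to 43.9%) and 42.4% in pool 2 (39.95% to 44.9%). In control cells 82.1% and 86.3% passed, in 10 µM persister cells 76.9% and 81.5%, in 320 µM persister cells 72.4% and 77.1%, and in 320 µM adapted cells 0.248% and 0.601%. With every cell thinned to 3000 UMIs and a threshold of 2, the shares were 33.9% and 31.7% in 10 µM adapted cells and 66.9% and 64.5% in control cells. The 10 µM adapted cells had 1332 with no panel UMI, 85 at a sum of 3, just outside the threshold, and 87 at a sum of 4, just inside it. These shares follow from the rule and were not tested.

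**Figure D1:**
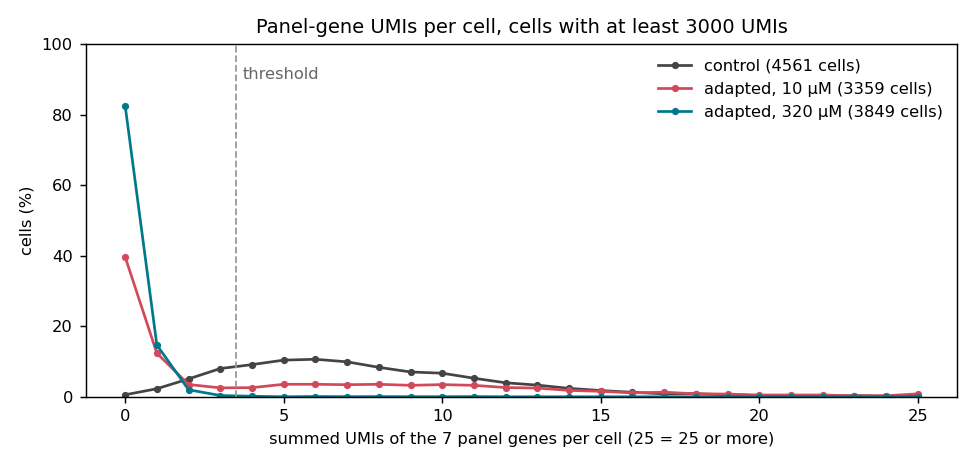
Share of cells (percent, y axis) at each summed UMI count of the 7 panel genes (x axis, 25 standing for 25 or more) in control, 10 µM adapted and 320 µM adapted cells with at least 3000 UMIs; the dashed line marks the threshold of 4. The 10 µM adapted cells have a peak at 0 (1332 cells) and a broad second part above the threshold, while the 320 µM adapted cells lie almost wholly below it.

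The panel genes themselves are described without a test, since they chose the cells. When each gene was left out and cells were chosen by the other 6, REC8 stood at 107 and 106 CPM (UMI counts scaled to a common total per sum) in the adapted sums against 96.4 and 97.3 in the control sums. EMX2 stood at 65.0 and 67.4 against 63.6 and 64.5 CPM, and DACH1 at 63.1 and 68.8 against 64.3 and 60.7 CPM. SPINT2 was at 387 and 390 CPM against 354 and 343, and MECOM at 82.5 and 90.6 against 63.2 and 57.3. LMO3 and BMP7 stood apart from the other panel genes. LMO3 was at 81.8 and 80.6 CPM against 22.6 and 20.7 in control cells, 3.75 times the control mean. BMP7 was at 70.2 and 75.5 CPM against 113 and 115, 0.639 times the control mean.

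The label of these cells, lineage-retained, was met by only part of the serous lineage genes outside the panel, so they are named here by the rule. PAX8, the factor most used to identify Müllerian epithelium, was at 139 and 140 CPM in the panel-positive adapted sums against 173 and 158 in the control sums, and at 41.4 and 39.8 in the panel-low sums. MEIS1, a homeobox factor, was at 50.3 and 48.6 CPM against 29.3 and 32.2, and its relative MEIS2 at 66.5 and 74.3 against 44.6 and 45.2. SOX17, a factor of the fallopian tube and endoderm, was at 22.4 and 25.2 CPM against 284 and 354. WT1, the Wilms tumour factor used to mark serous carcinoma, was at 2.59 and 2.45 CPM against 23.6 and 26.1. SOX5 was at 6.21 and 4.28 CPM against 60.7 and 50.2, and OSR2 at 14.7 and 15.8 against 60.2 and 55.8. So PAX8 fell by 0.24 ± 0.06 (log2 fold change ± SE; adjusted p = 0.00068), while SOX17 fell by 3.74 ± 0.22 (adjusted p = 6e-06), WT1 by 3.30 ± 0.18 and SOX5 by 3.40 ± 0.14. Adjusted p-values are from edgeR's quasi-likelihood test with Benjamini-Hochberg adjustment over all 12691 genes tested, and genes under 0.05 count as changed. Of 17 tested genes of the lineage list outside the panel, 6 rose and 9 fell, and the median log2 change was -0.15.

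Across all 12691 genes tested, 3932 were higher in panel-positive adapted than in panel-positive control cells (31.0%) and 3933 were lower (31.0%). A share of about 31.0% in a direction is therefore the background for the gene list counts of this main fit. The median log2 change over all 12691 genes was 0.0039, or -0.11 with library totals alone, which gave 3263 higher and 4792 lower. List counts from an alternative setting have the background of that setting. Cells called G1 gave 3159 higher and 3088 lower of 12221 genes, and cells thinned to 3000 UMIs 2540 and 2443 of 11135. The cells of a deposited list gave 3149 and 2998 of 12201. The adapted sums held 8134718 and 8513333 UMIs and the control sums 19142304 and 20802586; 3 UMIs, the limit that a count of 0 allows, correspond to 0.352 to 0.369 CPM in the adapted sums and 0.144 to 0.157 in the control sums. Panel-positive adapted cells had a median of 10406 and 12336 UMIs per cell against 8997 and 10502 in control cells, and the median share of mitochondrial UMIs was 8.65% in both pools against 8.31% and 8.06%. The names of 13 cell barcodes occurred in both pools, and 2 sums per group cannot reach a p below 0.33 in an exact permutation test.

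The gene with the largest rise was LIM2, which encodes a membrane protein of the eye lens. It had 522 and 507 UMIs in the panel-positive adapted sums and 5 in each control sum, that is 67.5 and 62.1 CPM against 0.252 and 0.232. The ratio of adapted to control was 268, with a 95% counting interval of 145 to 560. At 3000 UMIs per cell LIM2 was detected in 14.7% ± 3.07 (SD, n = 2) of panel-positive adapted cells (39.6% unthinned), 0.604% of panel-low cells (1.54%), 0.0522% of control cells (0.261%) and 0.0546% of 320 µM adapted cells (0.206%). LIM2 was no part of the rule, and its UMIs were rare in each of the other sets of cells. MFAP4, a matrix protein bound to microfibrils, had 152 and 218 UMIs against 2 and 3, a ratio of 193 (81.8 to 597). BGN, the proteoglycan biglycan, was at 85.5 and 81.9 CPM against 1.01 and 0.928, and at 37.9 and 25.6 in panel-low cells. PCOLCE, which enhances procollagen processing, was at 178 and 184 CPM against 5.59 and 5.38 but was higher still in panel-low cells, at 252 and 271. ENG, a co-receptor for TGF-beta ligands known from endothelium, was at 38.5 and 35.1 CPM against 1.31 and 1.39, and at 85.7 and 84.5 in panel-low cells.

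The other genes among the 12 largest rises shared a pattern: both panel-positive adapted sums stood above both panel-low sums, which stood above both control sums. HLA-DMB and HLA-DMA, the 2 chains of the MHC class II peptide editor, were at 88.0 and 78.3 and at 44.9 and 42.0 CPM, against 2.92 and 2.79 and 1.51 and 1.53 in control cells. TMEM190 was at 25.4 and 30.4 CPM, FXYD1, a regulator of the sodium pump, at 22.9 and 23.1, and MGAT4C at 54.7 and 55.2, each against at most 1.25 in a control sum. ADGRG1, an adhesion G protein-coupled receptor, was at 44.0 and 44.6 CPM against 1.01 and 0.882. HSD17B14, a steroid dehydrogenase, was at 50.8 and 47.9 CPM against 1.61 and 2.00. The 12 log2 changes ran from 4.75 ± 0.16 for ENG to 7.999 ± 0.19 for LIM2, with adjusted p-values from 9.7e-31 to 1.3e-19.

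**Figure D2:**
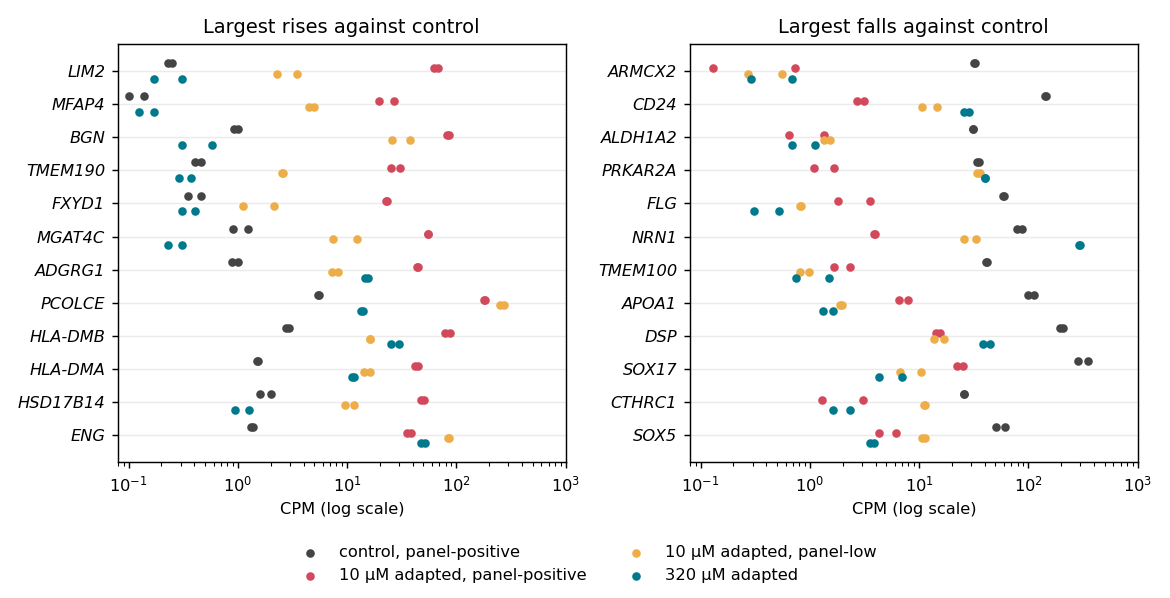
CPM (x axis, log scale) of the 12 genes with the largest rises (left) and the 12 with the largest falls (right) against control; each point is the sum of 1 group in 1 pool. LIM2 and PRKAR2A set panel-positive adapted cells (red) apart from panel-low cells (yellow), 320 µM adapted cells (teal) and control cells (dark grey), whereas ARMCX2, ALDH1A2 and TMEM100 are low in all adapted cells.

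The falls divide by whether the panel-low cells shared them. ARMCX2, an armadillo-repeat gene of the X chromosome, had 1 and 6 UMIs against 629 and 698 in control cells; the ratio of control to adapted was 72.8 (95% counting interval 35.3 to 182), and panel-low cells were as low, at 0.270 and 0.559 CPM. ALDH1A2, which makes retinoic acid, was at 0.647 and 1.35 CPM against 31.3 and 31.3, and TMEM100 at 1.68 and 2.33 against 41.7 and 40.7. FLG, the epidermal protein filaggrin, was at 1.81 and 3.55 CPM against 59.4 and 59.0, and APOA1, an apolipoprotein, at 7.89 and 6.61 against 99.7 and 112.5. DSP, the desmosome protein desmoplakin, was at 15.7 and 14.3 CPM against 208 and 196, and at 16.9 and 13.8 in panel-low cells. CD24, a surface glycoprotein of epithelial and ovarian cancer cells, was at 3.104 and 2.69 CPM against 144 and 146, and was less reduced in panel-low cells at 14.7 and 10.8. NRN1 was at 3.88 and 3.92 CPM against 86.9 and 79.3, with 25.96 and 33.0 in panel-low cells, and CTHRC1 at 1.29 and 3.06 against 25.7 and 25.9, with 11.2 in each panel-low sum. The 12 log2 changes ran from -6.15 ± 0.25 for ARMCX2 to -3.40 ± 0.14 for SOX5.

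PRKAR2A, a regulatory subunit of protein kinase A, was low in panel-positive adapted cells and near the control level in the other adapted cells. It was at 1.68 and 1.10 CPM against 35.1 and 33.6 in control cells, 36.1 and 33.9 in panel-low cells and a mean of 40.2 in 320 µM adapted cells. The log2 change was -4.62 ± 0.17 (adjusted p = 3.8e-22). At 3000 UMIs per cell it was detected in 0.209% ± 0.0827 (SD, n = 2) of panel-positive adapted cells (1.42% unthinned), against 9.64% of control (29.5%) and 9.56% of panel-low cells (21.5%). PRKAR2A lies at chr3:48744597-48847846 (GRCh38). The nearest genes on either side with at least 5 CPM, IP6K2 and ARIH2, had means of 57.3 and 56.4 CPM against 57.7 and 58.0 in control cells, with log2 changes of -0.01 and -0.04 that did not pass the test. ARMCX2, at chrX:101655281-101659891, has ARMCX6 and ARMCX3 on one side, with means of 31.0 against 31.1 CPM (log2 change -0.0028, adjusted p = 0.98) and 51.2 against 63.5 (-0.31, adjusted p = 0.00024). BEX4 on the other side rose from a mean of 3.97 to 15.03 CPM.

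S100A10, the calcium-binding partner of annexin A2, showed the same contrast at a high level. It was at 371 and 388 CPM against 2194 and 2231 in control cells and 1839 and 1787 in panel-low cells, a log2 change of -2.54 ± 0.04 (adjusted p = 2.5e-31). S100A2 moved the other way, at 734 and 687 CPM against 112 and 111, with 318 and 291 in panel-low cells. S100A4, often used as a mesenchymal marker, was at 2562 and 2592 CPM against 1981 and 1964, a rise that was lost in cells called G1 (0.03, adjusted p = 0.599), and at 834 and 801 in panel-low cells. Of 12 tested S100A genes, 6 rose and 3 fell.

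Levels along the summed panel count show how sharply these genes followed the split (the plot of 6 genes by panel UMIs). In 10 µM adapted cells LIM2 stood at 0.298 CPM in cells with no panel UMI, 7.83 at a sum of 1 to 3, 63.9 at 4 to 7, 57.7 at 8 to 15 and 69.8 at 16 or more. PRKAR2A went from 36.3 and 28.9 below the threshold to 2.13, 0.908 and 1.39 above it, and S100A10 from 1854 and 1550 to 433, 356 and 297. Above the threshold LIM2, PRKAR2A and SOX17 were about level: SOX17 was at 25.5, 21.3 and 23.1 CPM. EPCAM, an epithelial adhesion molecule, was higher in the upper than in the lower bins of both conditions, going from 1.99 to 29.2 CPM in adapted and from 2.85 at a sum of 1 to 3 to 12.7 at 16 or more in control cells. Just outside the threshold, at a sum of 3, adapted cells had 26.8 CPM of LIM2 and 13.4 of PRKAR2A; just inside it, at 4, they had 60.6 and 3.87. Cells with more panel UMIs were also deeper, with medians of 9150, 11442 and 14981 UMIs in the 3 upper bins, and the part of depth in these trends was not tested.

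**Figure D3:**
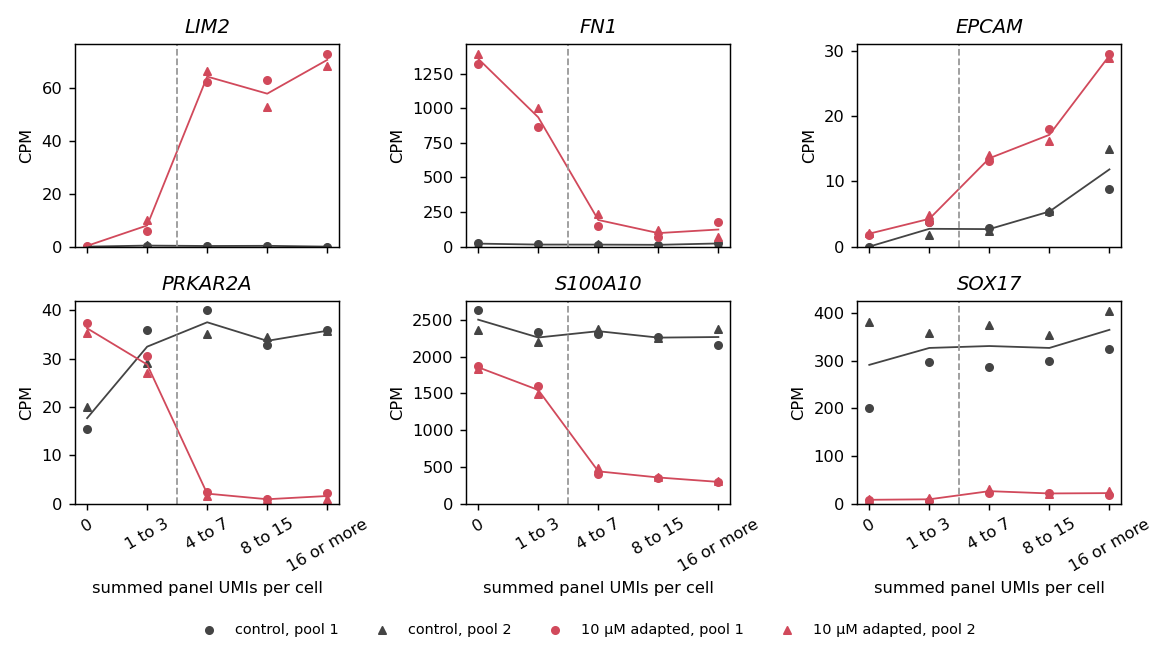
CPM (y axis) of LIM2, FN1, EPCAM, PRKAR2A, S100A10 and SOX17 in bins of summed panel UMIs per cell (x axis) for control and 10 µM adapted cells; circles are pool 1, triangles pool 2, lines the mean of both and the dashed line the threshold. In adapted cells LIM2, PRKAR2A, S100A10 and FN1 change across the threshold, whereas SOX17 is under 31 CPM in every adapted bin against 201 or more in control; the control bin at 0 holds 26 cells.

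Among epithelial genes the outcome was mixed, with 6 of 16 tested members higher and 6 lower. EPCAM was at 19.4 and 19.95 CPM against 4.28 and 5.29, and CLDN4, a tight junction claudin, at 51.4 and 62.3 against 17.8 and 18.8; both were below control in panel-low cells, at 2.57 and 3.07 for EPCAM and 7.84 and 5.73 for CLDN4. TJP1, a tight junction scaffold, was at 72.6 and 63.9 CPM against 131 and 127, and fell with CD24 and DSP. Of 10 tested keratins 5 rose and 2 fell. The falls were KRT8 and KRT18, the pair of simple epithelium, which went to 526 and 549 and to 1353 and 1378 CPM, from 1219 and 1266 and from 2704 and 2763. KRT7 rose to 63.6 and 67.0 CPM from 3.02 and 2.65, and KRT19 to 26.4 and 31.2 from 9.93 and 10.5. CDH1 had too few UMIs to be tested, 1 and 2 against 9 and 10. Of 15 tested surface antigens of ovarian cancer 4 rose and 6 fell (4 and 4 in cells called G1): CDH6 was at 286 and 290 CPM against 514 and 491, MSLN at 36.7 and 38.9 against 87.9 and 83.1, CD47 at 111 and 103 against 309 and 328, and ERBB2 at 30.4 and 32.3 against 18.5 and 19.2. MUC16, the CA125 antigen, had 1 UMI in each adapted sum and 10 in each control sum, which did not pass the test (adjusted p = 0.0849, and 0.0383 in cells with at least 5000 UMIs).

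VIM, FN1 and COL1A1 were above control in panel-positive adapted cells and further above it in panel-low cells, but not every mesenchymal gene was. VIM, the intermediate filament vimentin, was at 1082 and 1016 CPM against 248 and 270 in control cells and 2130 and 2070 in panel-low cells. FN1, fibronectin, was at 119 and 138 CPM against 13.3 and 14.3, and at 1199 and 1320 in panel-low cells. COL1A1 was at 5.56 and 9.55 CPM against 0.806 and 1.21, and at 186 in both panel-low sums. Unthinned, VIM was detected in 98.7% of panel-positive adapted, 99.1% of panel-low and 70.3% of control cells. FN1 was detected in only 26.1%, 90.4% and 11.9% of these, and COL1A1 in 4.1%, 39.5% and 1.08%. The part of mixed cells in these levels was not tested. Of 21 tested mesenchymal genes, 11 rose and 3 fell with a median log2 change of 0.40 (2.44 in panel-low cells); in cells called G1 the counts were 7 and 4. Of 28 integrin, laminin and other matrix genes 17 rose and 6 fell; LAMB1 was at 94.3 and 93.4 CPM against 28.8 and 30.1 and LAMA4 at 20.8 and 19.3 against 2.22 and 2.51. Of 16 tested collagens 8 rose and 4 fell (4 and 4 in cells called G1). Among those of basement membranes COL18A1 rose to 55.9 and 51.8 CPM from 37.7 and 38.9, while 2 chains of collagen IV fell: COL4A1 was at 33.4 and 29.01 CPM against 81.7 and 76.4, and COL4A2 at 77.1 and 76.5 against 110 and 113. SPARC, a matrix glycoprotein, fell to 164 and 163 CPM from 265 and 282, and COL12A1 to 11.5 in each sum from a mean of 20.3, while both were above control in panel-low cells. AXL, a receptor tyrosine kinase, rose to 39.97 and 41.6 CPM from 2.02 and 2.46, and TGFB1 to 55.0 and 52.5 from 6.35 and 5.24, each with a higher level in panel-low cells. Of 15 contractile genes 5 rose and 7 fell: TNNT1 was at 254 and 241 CPM against 54.1 and 54.8, MYLK, the kinase of myosin light chain, at 7.89 and 9.06 against 60.6 and 64.9, and CNN3 at 133 and 129 against 385 and 371.

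**Figure D4:**
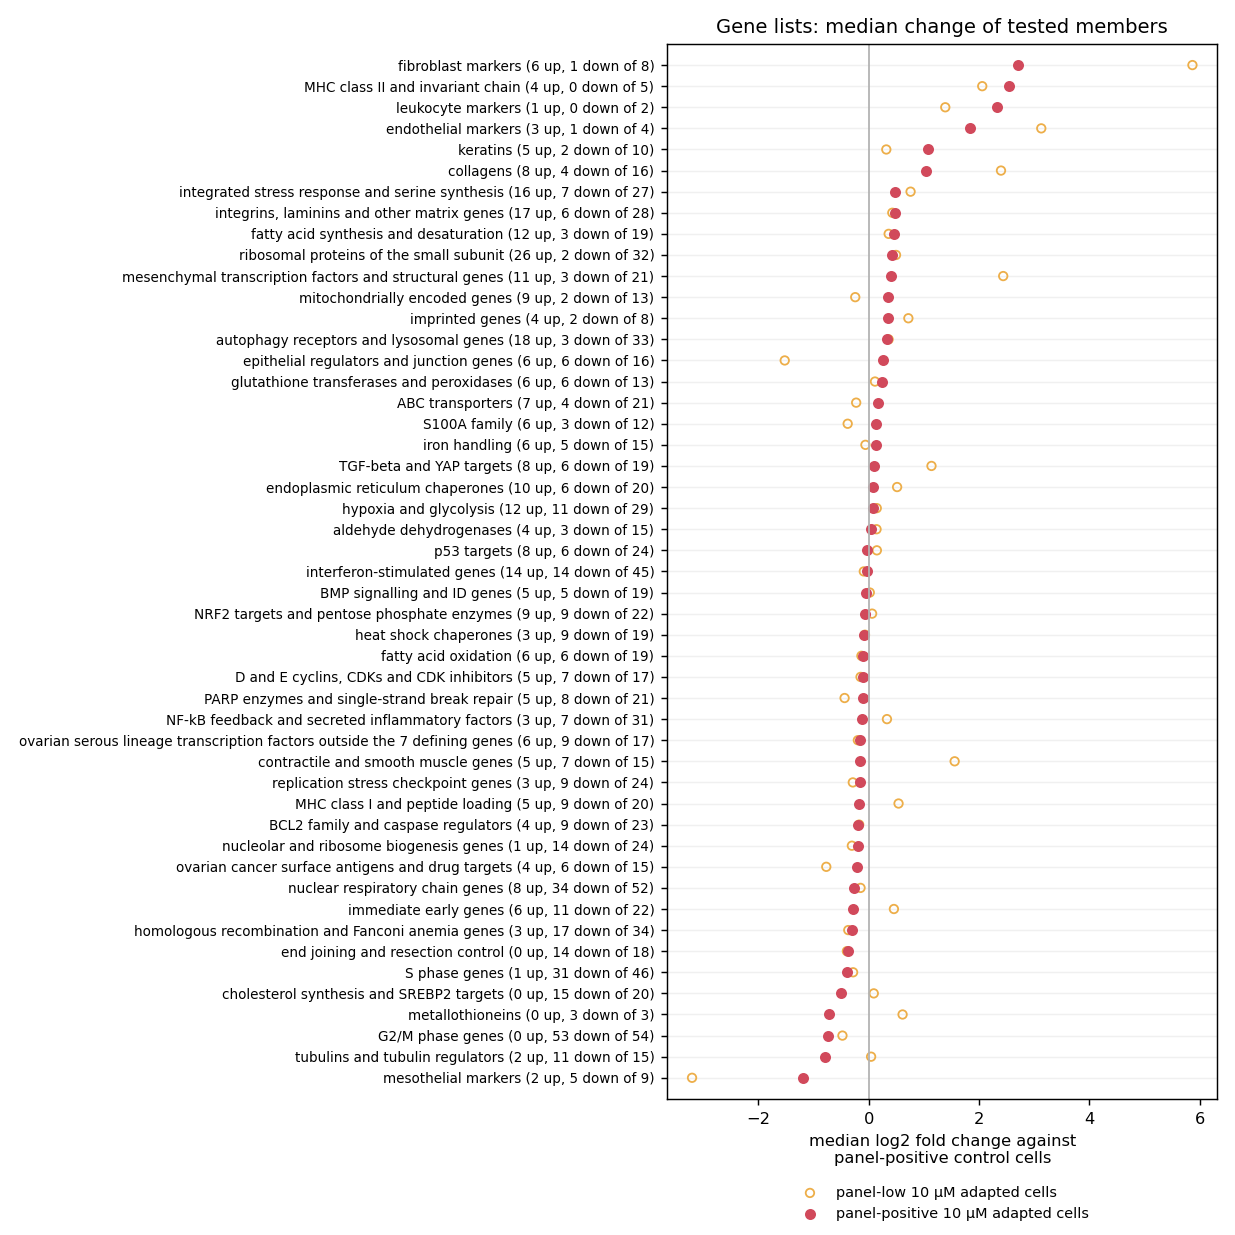
Median log2 change against panel-positive control cells (x axis) of the tested members of 49 gene lists in panel-positive (filled) and panel-low (open) 10 µM adapted cells; the counts beside each name are members higher and lower in panel-positive cells. Mesenchymal, collagen and fibroblast lists lie further right in panel-low cells, and the cholesterol synthesis, tubulin and metallothionein lists lie to the left in panel-positive cells only; both medians use the same control sums.

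Genes of cell division were lower in panel-positive adapted cells. Of 54 genes of the G2 and M phases 53 fell and 0 rose at an adjusted p under 0.05, with a median log2 change of -0.73. MKI67, the Ki-67 antigen, was at 88.3 and 79.1 CPM against 162 in both control sums, ANLN, the cytokinesis protein anillin, at 28.2 and 30.0 against 100 and 102, and CDC20, an activator of the anaphase-promoting complex, at 66.5 and 62.2 against 140 and 153. Of 46 genes of S phase 31 fell and 1 rose; CLSPN, a mediator of the replication checkpoint, was at 65.8 and 66.7 CPM against 161 and 160. Calls of S or G2/M phase, which rest on these genes, were made for 32.0% ± 1.11 of panel-positive adapted cells, 55.8% ± 1.95 of panel-positive control cells and 34.1% ± 1.75 of panel-low cells (SD, n = 2). Within cells called G1, 26 of the 54 genes of G2 and M fell and 3 rose, and 17 of 45 S phase genes fell. CCND1, cyclin D1, rose to 322 and 316 CPM from 220 and 221, CDKN1A, the p21 inhibitor, to 24.3 and 22.5 from 13.4 and 15.4, and RB1 fell to 30.1 and 27.7 from 53.1 and 50.6. The rise of CDKN1A did not pass the test in cells thinned to 3000 UMIs (0.29, adjusted p = 0.24). CDKN2A, which encodes p16, was at 384 and 405 CPM against 804 and 855, and at 97.3 and 79.1 in panel-low cells.

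Promoters of the genes of G2 and M are known for the CHR element (TTTGAA), through which the DREAM complex acts, often beside CCAAT boxes bound by NF-Y. In the 250 bases before the RefSeq start (GRCh38.p14), TTTGAA on either strand was present in 26 of the 46 genes of this list that matched the promoter table (56.5%), in 4 of 37 matched S phase genes (10.8%) and in 16.1% of all 27305 genes. CCAAT on either strand was present in 71.7% of the 46 genes and in 37% of all genes. Since 53 of the 54 genes fell, the stretch around the element is shown for the 3 fallen members with the lowest p among those that hold it; capitals mark the element on either strand, and a match is no evidence of binding. The printed stretch before ANLN is chr7:36389812-36389861, that before CKS1B, a cofactor of cyclin-dependent kinases, chr1:154974621-154974680 and that before CDC20 chr1:43358886-43358951, all on the plus strand.
ANLN: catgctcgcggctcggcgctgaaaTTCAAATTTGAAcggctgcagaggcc
CKS1B: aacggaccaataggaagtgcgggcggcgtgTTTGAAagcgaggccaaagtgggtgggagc
CDC20: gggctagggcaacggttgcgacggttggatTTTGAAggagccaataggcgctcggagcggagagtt

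Of the targets of olaparib PARP1 was lower and PARP2 near control, and repair genes were more often lower than higher, though not in every alternative. PARP1 was at 203 CPM in both panel-positive adapted sums against 322 and 311 in control cells, a log2 change of -0.64 ± 0.05 (adjusted p = 1.1e-13), and at 133 and 124 in panel-low cells. PARP2 was at 27.8 and 26.3 CPM against 28.2 and 27.6 and did not pass the test, nor did TP53BP1, which guides end joining, at 53.7 and 55.8 against 55.2 and 52.4. PARG, the glycohydrolase that removes poly(ADP-ribose), was at 10.2 and 10.9 CPM against 12.8 and 12.95 (adjusted p = 0.0588; under 0.05 in 8 of the 20 alternative settings). BRCA2 was at 13.3 and 12.4 CPM against 18.9 and 17.8 (-0.51 ± 0.12, adjusted p = 0.00049). This fall did not hold in cells called G1 (adjusted p = 0.064) or in cells thinned to 3000 UMIs (0.185). Nor did it hold in the cells of a deposited list whose name holds g1 (0.377). Of 34 homologous recombination and Fanconi anemia genes 17 fell and 3 rose, but 7 and 4 in cells called G1 and 5 and 5 in the cells of a deposited list; BARD1, the partner of BRCA1, was at 31.0 CPM in both sums against 58.2 and 56.9. Of 18 end joining genes 14 fell and 0 rose, and 9 fell in cells called G1; XRCC5, the larger subunit of Ku, was at 350 and 333 CPM against 501 and 475. HUS1, of the checkpoint clamp, was at 6.98 and 6.86 CPM against 23.9 and 24.6, and RPA2, of the single-strand binding protein, at 50.3 and 52.1 against 95.1 and 93.7. The drug efflux pump ABCB1 (0 and 1 UMI against 0 and 0) was too low to be tested, and SLFN11, known for sensitising cells to DNA damage, had 0 and 1 UMI against 0 and 0, with 20 and 12 in panel-low cells.

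Cholesterol synthesis genes were lower as a list in panel-positive adapted cells. Of 20 tested members 15 fell and 0 rose, with a median log2 change of -0.51 against 0.09 in panel-low cells; whether the lists differ between the sets of cells was not tested. SQLE, the squalene epoxidase, was at 163 and 161 CPM against 353 and 345, with 280 and 261 in panel-low cells. DHCR7, of the last step, was at 26.9 and 23.9 CPM against 51.0 and 53.1, with 34.6 and 36.7 in panel-low cells. SC5D was at 23.4 and 23.01 CPM against 55.3 and 55.4, with 30.7 and 31.4 in panel-low cells. FDPS, which makes farnesyl diphosphate, was at 111 and 113 CPM against 207 and 205, with 103 and 98.1 in panel-low cells. Of these 4 genes all were below control in panel-low cells too, although the median of the list there was above 0. INSIG1, a feedback regulator, at 13.5 and 14.1 against 15.7 and 14.99, did not pass the test (it did with library totals alone, adjusted p = 0.0477). In cells called G1, 13 of the 20 fell and 0 rose.

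NF-Y acts with SREBP2 at many of these promoters. Among 15 members matched to RefSeq starts, 14 hold CCAAT on either strand in the 250 bases before the start (93.3%), against 37% of all genes. Because 15 of the 20 genes fell, the stretch around a match is shown for 3 of the fallen members with low p-values, with CCAAT or its complement ATTGG in capitals. The printed stretch before FDPS is chr1:155308785-155308849 and that before SC5D chr11:121292685-121292749, on the plus strand, and that before DHCR7 is chr11:71448407-71448471, on the minus strand.
FDPS: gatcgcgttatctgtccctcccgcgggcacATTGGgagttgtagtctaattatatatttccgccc
SC5D: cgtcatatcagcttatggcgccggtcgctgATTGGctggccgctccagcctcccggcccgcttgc
DHCR7: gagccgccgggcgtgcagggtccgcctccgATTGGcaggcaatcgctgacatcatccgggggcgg

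Fatty acid genes moved the other way, with 12 of 19 higher and 3 lower. FABP5, a fatty acid carrier, rose to 23.3 and 24.4 CPM from 9.68 and 9.56, while the elongase ELOVL1 fell to 44.8 and 49.6 from 86.7 and 91.9 and malic enzyme ME1 to 13.1 and 13.7 from 24.2 and 23.9. Lysosomal and autophagy genes were higher in 18 of 33 and lower in 3. CTSB, the protease cathepsin B, was at 165 and 172 CPM against 52.3 and 55.0, GRN, progranulin, at 220 and 216 against 79.8 and 74.4, NPC2, which carries cholesterol out of lysosomes, at 295 and 288 against 107 and 106, and WIPI1 at 33.2 and 31.8 against 4.08 and 4.46. The ferritin chains rose: FTL was at 9003 and 8615 CPM against 3848 and 3894, and FTH1 at 6546 and 6598 against 4852 and 4845.

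Genes of the integrated stress response, which ATF4 drives when translation is curbed, rose in 16 of 27 cases and fell in 7. The list's median log2 change was 0.48, and it was higher in panel-low cells, at 0.76. TRIB3, a pseudokinase, was at 43.1 and 35.5 CPM against 4.49 and 4.22, STC2 at 51.9 and 42.8 against 7.41 and 7.24, and DDIT4, an inhibitor of mTORC1, at 77.5 and 72.1 against 16.6 and 16.7. CHAC1, which degrades glutathione, was at 27.0 and 24.4 CPM against 3.63 and 4.97, ASNS, the asparagine synthetase, at 94.6 and 89.8 against 17.6 and 16.1, and the secreted factor GDF15 at 83.3 and 98.9 against 3.53 and 3.39. ATF3 went against them, at 45.5 and 45.7 CPM against 133 and 128. The composite element of ATF4 (TGATGNAA on either strand) was present before the start of 4 of 22 matched members (18.2%) and 3.89% of all genes. It is shown in capitals in the stretches before CHAC1 (chr15:40953232-40953299, plus strand) and ASNS (chr7:97872439-97872506, minus strand), the matched members with the lowest p.
CHAC1: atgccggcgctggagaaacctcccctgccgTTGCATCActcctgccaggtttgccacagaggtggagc
ASNS: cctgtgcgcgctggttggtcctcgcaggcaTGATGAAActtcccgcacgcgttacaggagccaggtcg

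Ribosomal proteins were mostly higher and nuclear respiratory chain genes mostly lower, while mitochondrially encoded genes were mostly higher. Of 32 proteins of the small ribosomal subunit 26 rose and 2 fell, with a median log2 change of 0.43; RPS2 was at 16913 and 16749 CPM against 8467 and 8609. Of 52 nuclear respiratory chain genes 34 fell and 8 rose, among them NDUFA4 at 656 and 655 CPM against 1314 and 1326. Of 13 mitochondrially encoded genes 9 rose and 2 fell: MT-ND4 was at 11098 and 11212 CPM against 6389 and 6311, and MT-CYB at 9510 and 9402 against 14029 and 13429. The list's median was 0.36 in panel-positive and -0.24 in panel-low cells, whose median mitochondrial share was 5.87% and 5.55%. That share counts UMIs of mitochondrially encoded genes, so it is not a measure separate from the list. Of 15 tubulins and their regulators 11 fell and 2 rose; TUBA1B was at 529 and 506 CPM against 867 and 931 and TUBB6 at 49.0 and 50.8 against 94.3 and 95.3, while in panel-low cells TUBA1B was at 828 and 865 and TUBB6 at 98.4 and 97.4. All 3 tested metallothioneins fell, with MT2A at 517 and 578 CPM against 888 and 933 and at 2644 and 2708 in panel-low cells. TXNRD1, a target of NRF2, fell to 68.6 and 70.1 CPM from 168 and 163, and BTG2, an antiproliferative target of p53, to 24.6 and 23.99 from 116 and 122.

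Immune genes did not move in 1 direction. Of 5 tested genes of MHC class II, HLA-DMA and HLA-DMB among them, 4 rose and 0 fell. Of 45 interferon-stimulated genes 14 rose and 14 fell: BST2 was at 473 and 466 CPM against 232 and 229 and IFITM2, which blocks the entry of viruses, at 289 and 294 against 118 and 126, whereas ISG15 was at 101 and 111 against 169 and 178 and HERC5 at 5.82 and 6.73 against 29.8 and 27.0. Of 20 genes of MHC class I 5 rose and 9 fell; HLA-E was at 69.7 and 70.0 CPM against 23.4 and 27.5, HLA-B at 134 and 141 against 82.3 and 88.8, B2M at 774 and 786 against 1060 and 1080 and PSMB8 at 9.31 and 9.43 against 23.9 and 24.7. Of 31 NF-kB and inflammatory genes 3 rose and 7 fell (5 and 5 in the cells of a deposited list); SLPI, a secreted inhibitor of proteases, was at 2241 and 2188 CPM against 361 and 349, and the cytokine IL32 at 4.01 and 5.51 against 26.8 and 27.4.

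Nucleolar genes were more often lower than higher, and so were heat shock chaperones, though narrowly in cells called G1. Of 24 genes of the nucleolus and ribosome assembly 14 fell and 1 rose: NCL, nucleolin, was at 787 and 762 CPM against 1316 and 1257, and the rise was NPM1, nucleophosmin, at 3994 and 3809 against 3161 and 3047. Of 19 heat shock chaperones 9 fell and 3 rose, but 5 and 4 in cells called G1. DNAJA1, a partner of HSP70, was at 306 and 289 CPM against 688 and 699 and HSPB1 at 385 and 390.3 against 266 and 269. Of 20 chaperones and regulators of the endoplasmic reticulum 10 rose and 6 fell (4 and 9 with library totals alone), HERPUD1, which serves the degradation of misfolded proteins, reaching 116 and 115 CPM from 53.02 and 55.0. Of 23 regulators of apoptosis 9 fell and 4 rose, but 5 and 4 of 22 in cells called G1. BCL2L1, the survival factor BCL-XL, was at 32.5 and 34.3 CPM against 77.6 and 81.9, and CASP8, an initiator caspase, at 13.1 and 14.3 against 28.2 and 27.9. Of 22 immediate early genes 11 fell and 6 rose; KLF6 was at 46.4 and 44.1 CPM against 96.5 and 95.7, with 104 and 112 in panel-low cells, and DUSP5, a phosphatase of ERK, at 6.47 and 8.20 against 22.2 and 24.04.

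Redox and energy genes were split. Of 22 NRF2 targets 9 rose and 9 fell, with PRDX1, a peroxiredoxin, at 1163 and 1141 CPM against 1965 and 1928 and AKR1B1, aldose reductase, at 359 and 347 against 191 and 187. Of 13 glutathione transferases and peroxidases 6 rose and 6 fell; GSTM4 was at 10.6 and 13.3 CPM against 63.9 and 64.9. Of 29 genes of glycolysis and hypoxia 12 rose and 11 fell (8 and 13 with library totals alone): the glycolytic enolase ENO1 was at 769 and 773 CPM against 1721 and 1654 and the glucose carrier SLC2A1 at 43.7 and 46.2 against 89.4 and 99.2, both on chromosome 1, while the phosphofructokinase PFKP was at 55.5 and 48.6 against 26.1 and 27.7. Of 19 genes of fatty acid oxidation 6 rose and 6 fell, with ETFB, which passes electrons on from it, at 241 and 220.3 CPM against 105 and 100.2. Of 15 iron genes 6 rose and 5 fell; ACO1, which binds the iron-responsive elements of mRNAs, was at 26.1 and 23.8 CPM against 61.5 and 55.97.

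Signalling lists were likewise mixed. Of 19 BMP and ID genes 5 rose and 5 fell: BMP4 was at 38.0 and 37.8 CPM against 9.27 and 11.7, opposite to BMP7 of the panel, ID2 at 89.0 and 95.8 against 53.4 and 54.6, and ID4 at 40.7 and 41.4 against 66.5 and 68.5, with 9.73 and 8.94 in panel-low cells. Of 19 targets of TGF-beta and YAP 8 rose and 6 fell, SKIL, a repressor of SMAD signalling, standing at 41.5 and 39.4 CPM against 16.1 and 15.1. Of 21 ABC transporters 7 rose and 4 fell, but 5 and 6 with library totals alone, 1 and 4 in cells thinned to 3000 UMIs and 2 and 4 in cells called G1. Of 24 targets of p53 8 rose and 6 fell, but 6 and 8 with library totals alone and 5 and 7 in thinned cells. Of 17 cyclins, CDKs and their inhibitors 5 rose and 7 fell, and 4 and 4 in cells called G1. Of 21 genes of single-strand break repair 5 rose and 8 fell, FEN1, the flap endonuclease, standing at 41.0 and 37.6 CPM against 73.5 and 76.5, and of 24 genes of the replication stress checkpoint 3 rose and 9 fell. Of 8 imprinted genes 4 rose and 2 fell, and of 15 aldehyde dehydrogenases 4 rose and 3 fell (2 and 3 with library totals alone). PEG10, a paternally expressed gene, was at 275 and 268 CPM against 265 and 259 and did not pass the test (under 0.05 in 4 of the 20 alternative settings, with a higher level), while panel-low cells had 69.2 and 66.2.

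Markers of other cell types were checked as whole lists, whose sums are in CPM without the scaling used elsewhere; the part of such cells in the results was not tested. Of 15 leukocyte markers, whose summed level was 8.73 and 9.40 CPM in panel-positive adapted cells and 1.36 and 1.54 in control cells, 7 had no UMI in either adapted sum, PTPRC, CD3D and CD3E among them. CD68, a lysosomal protein abundant in macrophages, made up most of the sum, with 57 and 62 UMIs against 8 and 16, and was the 1 of 2 tested members that rose. The 12 fibroblast markers summed to 176 and 166 CPM against 81.3 and 89.6, with COL1A2 and PRRX1 at 0 and THY1 at 1165 and 1096 UMIs against 705 and 774. The 10 endothelial markers summed to 230.2 and 223 CPM against 59.97 and 59.3; EGFL7 had 1728 and 1749 UMIs against 1054 and 1096 and EMCN 128 and 135 against 2 and 8, while PECAM1 had 0 and 1 UMI and CDH5 2 and 1 against 37 and 55. The 11 mesothelial markers summed to 65.3 and 63.3 CPM against 187 and 183, and of 9 tested 5 fell and 2 rose; the rises were DES, the muscle filament desmin, with 61 and 68 UMIs against 20 and 30, and KLK11, a secreted protease, with 18 and 11 against 5 and 4, and among the falls UPK3B was at 14.7 and 11.02 against 44.7 and 43.5 and UPK1B at 3.49 and 3.06 against 21.1 and 20.7.

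Change was not spread evenly over chromosomes, an observation made after the values were seen. Of 569 genes of chromosome 17 with at least 5 CPM, 72.8% were higher and 7.38% lower, with a median log2 change of 0.52 (0.51 and 0.50 in the 2 pools), against 29.9% higher and 37.2% lower and a median of -0.07 over all 9367 such genes. All 9 of its 10 Mb windows with at least 15 genes had a median above 0, from 0.28 to 0.62, and the median of the chromosome in panel-low cells was 0.11. Genes of chromosome 17 gave a median of 5.71% and 5.80% of the UMIs of a panel-positive adapted cell, 3.87% and 3.94% of a control cell and 4.54% and 4.61% of a panel-low cell. In 320 µM adapted cells the median was 4.96% and 5.06%, so a share above control was not particular to the panel-positive cells. In pool 2 the 5th percentile of panel-positive adapted cells (4.76%) lay above the 95th percentile of control cells (4.73%), and in pool 1 slightly below it (4.57% against 4.73%). Chromosome 1 was lower, with a median of -0.43 and 64.7% of 1013 genes lower (-0.80 in panel-low cells), except for its last 2 windows, whose medians were 0.18 and 0.58 against -0.57 and -0.52 in panel-low cells. Chromosome 13 had a median of -0.54 (-0.65 in panel-low cells). On chromosome 7 the median was -0.59 over 152 genes from 0 to 60 Mb and 0.35 over 302 genes from 60 to 160 Mb, with -0.51 and 0.41 in panel-low cells. On chromosome 9 it was -0.94 over 104 genes from 0 to 40 Mb and -0.01 over 279 genes from 60 to 140 Mb, with -0.78 and -0.03 in panel-low cells. Chromosome 19, which holds LIM2, TMEM190, FXYD1 and HSD17B14, had a median of 0.25 with 49.6% of 627 genes higher and 15.8% lower (0.09 in panel-low cells). Its window medians ran from -0.08 (30 to 40 Mb) to 0.46 (50 to 60 Mb), the latter with 0.895 in panel-low cells. Genes of chromosome 19 gave 11.4% and 11.3% of the UMIs of a panel-positive adapted cell. They gave 11.3% in both pools of panel-low cells, 8.63% and 8.64% in control and 12.2% in both pools of 320 µM adapted cells. DNA copy number was not measured, and its part in these medians was not tested.

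Several genes described above lie in such stretches. The genes placed here are examples, and others, such as ENO1 and SLC2A1 on chromosome 1, are not repeated. BRCA2 and RB1 are on chromosome 13, in windows with medians of -0.52 (30 to 40 Mb) and -0.47 (40 to 50 Mb), beside their own changes of -0.51 and -0.84. PARP1 lies at chr1:226360691-226408079, in a window with a median of -0.19, beside its own -0.64. ERBB2 is on chromosome 17, in the window with the lowest median there, 0.28 (30 to 40 Mb), beside its own 0.73. CDKN2A (chr9:21967753-21995301) lies in the lower part of chromosome 9, and HUS1 and ANLN lie in the lower part of chromosome 7. CKS1B and FDPS lie on chromosome 1 in a window with a median of -0.39 (150 to 160 Mb). CDC20 lies on the same chromosome in a window with a median of -0.38 (40 to 50 Mb). The part of their position in these changes was not tested.

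**Figure D5:**
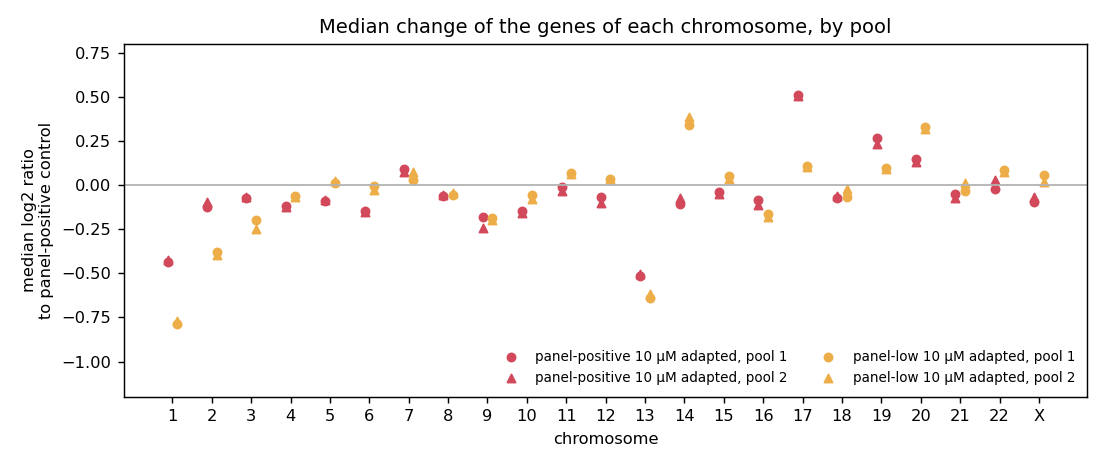
Median log2 ratio to panel-positive control cells (y axis) of the genes of each chromosome (x axis) with at least 5 CPM, in panel-positive and panel-low 10 µM adapted cells; circles are pool 1 and triangles pool 2. Chromosome 17 stands at 0.51 and 0.50 in panel-positive cells and 0.11 and 0.10 in panel-low cells, and both sets of cells use the same control sums.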

How the data were processed

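Kuramochi cells were hashed, mixed into 2 pools that each held all 5 conditions, and sequenced with 10x Genomics 3′ v3.1 chemistry, per the labels' protocols; condition and pool came from the deposited cell names. Cell Ranger 3.1 and Seurat are named per the submitters' processing notes. The authors deposited UMI counts, not normalized, for 19893 genes in 13800 cells; for counting, demultiplexing and doublet removal the settings were not given in the sources used here. No doublet caller was run. A deposited list of 7762 cells (UMI counts per cell), whose name holds g1, served as an alternative. It held 64.1% and 68.3% of panel-positive adapted cells and 39.8% and 41.8% of panel-positive control cells. Shares called G1 were close, at 67.2% and 68.8% and at 42.8% and 45.55%. The list and the cells called G1 should therefore not be read as independent alternatives.

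Counts of the 12 sums (6 groups in 2 pools, without the 7 panel genes) were scaled by edgeR's TMM method, filtered with filterByExpr and fitted with edgeR 4.0.16 (robust quasi-likelihood, 6 residual degrees of freedom, biological coefficient of variation 4.43%); 12691 genes were tested with Benjamini-Hochberg adjustment. CPM are UMIs over the TMM-scaled total of a sum; CPM of panel genes, of bins by panel count and of summed markers use the plain total. The fit was tested on simulated counts in which few genes changed and all groups otherwise shared the same means. That setting does not cover data in which most genes were called changed. Pools deviated together: the pool differences of control and adapted sums correlated at 0.532 over 2653 genes (all pairs of groups 0.302 to 0.575), so an alternative fit took the pool, a shared library batch, as replicate block. The 2 pools of a group were not copies of one library: their counts differed with a chi-square of 3.04 (control) and 2.05 (adapted) per degree of freedom, and random parts of pool 1 with 1.17 and 1.32. Thinning drew 3000 UMIs per cell; phases were called with scanpy 1.11.5. Intervals and floors cover counting error only.

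Named genes were the 12 largest rises and falls (adjusted p under 0.05, at least 20 CPM, groups apart), up to 4 members of each list with the lowest p, and 19 genes always named, of which some are not reported here; MEIS1, GDF15, ASNS, DHCR7, INSIG1, SLFN11, CDH1, EMCN, CD68, DES, KLK11 and neighbours on the chromosome were named after their values were seen. Members and the 49 gene lists were chosen with earlier results of these data known. Symbols EMX2OS, GSTT1, GPX1, H19, MEG3 and MEG8 were not analysed here. Gene positions are from GENCODE 29 (GRCh38), and sequences upstream of gene starts from RefSeq (GRCh38.p14).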

Additional observations from a re-analysis of the deposited data

Results flagged for a closer look

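For 23 of the genes printed, both panel-positive adapted sums lay on one side of both control sums and both panel-low sums on the other. This asks only that sums lie apart, so some of the changes were small. No test of panel-low against control cells is reported, and the rise of S100A4 in panel-positive cells was lost in cells called G1 (0.03). The difference between the 2 sets was not tested, since the summed panel count chose them, and both changes use the same control sums. The log2 change in panel-low cells was -0.74 for MEIS1, -0.77 for EPCAM, -1.43 for CLDN4, -1.66 for KRT19, -0.19 for ERBB2, -1.27 for S100A4, -0.72 for BST2, -1.16 for CCND1, -0.24 for MT-ND4, -0.11 for RPS2, -0.86 for ID2 and -0.80 for AKR1B1, all of which were higher in panel-positive cells. It was 0.52 for SPARC, 1.86 for COL12A1, 0.19 for TPM2, 0.43 for ISG15, 0.36 for B2M, 0.36 for PSMB8, 0.0457 for TUBB6, 1.31 for ME1, 1.56 for MT2A, 0.62 for MT1X and 0.16 for KLF6, all of which were lower in panel-positive cells.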

How the results depend on the processing

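Of the 153 tested genes named, 142 kept their direction and side of the threshold in all 20 alternative settings that tested them, and 11 changed in some. Against 3932 genes higher and 3933 lower, 2532 were higher when only genes with a mean of at least 10 CPM were tested, which leaves fewer genes; cells thinned to 3000 UMIs gave 2540 higher and 2443 lower, at lower depth. Leaving out each sum in turn gave 3359 to 3547 higher and 3363 to 3700 lower, where a lone sum is assumed to vary like the other groups. With the pool as a replicate block 4131 were higher and 4166 lower, and of the named calls it changed PARG alone (adjusted p = 0.0484). Against all control cells with enough UMIs, an alternative chosen after seeing the data, 3943 were higher and 3968 lower. The panel-positive share of 10 µM adapted cells (42.01%) was 32.79% at 3000 UMIs per cell, 47.95% at a summed count of 2, 29.05% at 8, 48.01% with at least 5000 UMIs and 35.72% without SPINT2; the control share (84.21%) was 65.70%, 97.18% and 44.37% at the first 3 of these and 68.69% without SPINT2.

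Where the sign of a log2 change turned, it was at most 0.229 in size. In cells of the deposited list S100A4 was at -0.0123, PARP2 at 0.218, TP53BP1 at -0.0229 and INSIG1 at 0.177, and in cells called G1 PARP2 was at 0.186 and INSIG1 at 0.071. With library totals alone TP53BP1 was at -0.0915 and PEG10 at -0.0688, and with at least 10 CPM PARP2 was at 0.0267, IP6K2 at 0.0611 and ARIH2 at 0.0301. TP53BP1 was at -0.00733 without a filter on low counts and -0.00702 in thinned cells, and ran from -0.0331 to 0.0498 when each sum was left out. IP6K2 was at 0.0047 at a summed count of 8, 0.0626 with at most 15000 UMIs, 0.229 in thinned cells and 0.00348 in DESeq2, and ran from -0.0482 to 0.02 when each sum was left out. PEG10 was at -0.0203 at a summed count of 2. The cause of these turns was not tested. Control sums are deeper than adapted sums, so genes low in control cells are measured more finely there.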
